A study of Mus musculus with 15 samples.

Results

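Ovaries of Foxl2-null mice were compared with wild-type ovaries at 7 days postnatum (7 dpn), across all genes of the array and by gene family. The comparison rests on 4 of the 15 arrays of the series, 2 from Foxl2-/- and 2 from Foxl2+/+ females, chosen by the genotype and the age in the sample titles. The other arrays hold 2 Foxl2+/- samples of the same age and 9 samples of newborn ovaries, which entered the fit for the spread between arrays and are set beside the comparison at the end. RNA of each 7 dpn sample came, per the methods, from a pool of several mice, so that each array is the mean of a pool. The strain is given as NIHS-BC in the labels and as a mixed 129S6/SvEvTac and NIH-Swiss/BC background in the methods. One label field gives birth as the age of the 7 dpn samples, whereas their titles and development stage give 7 days, and the latter was used. The modification field reads knock-out for every sample, wild-type included, so genotype was taken from the titles and the treatment field.

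FOXL2 is a forkhead transcription factor made by the somatic cells of the ovary, above all the granulosa cells that surround the oocyte. In the first week after birth of the mouse, granulosa cells turn from flat to cuboidal and divide, oocytes begin to grow, and theca cells and a vascular stroma gather around the follicles. Granulosa cells make inhibins, activins and follistatin and convert androgens to oestrogens, whereas theca and interstitial cells make the androgens.

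Each array carried ovary RNA in Cy3 and a reference pooled from cultured cell lines in Cy5, and a level here is the normalized log2 ratio of ovary over reference, so that levels are compared between samples for one probe and never between probes. In the Cy3 channel of these 4 arrays 94.3 to 94.9% of the signals stood well above background. Levels correlated across probes with r = 0.964 between the 2 null arrays and 0.941 between the 2 wild-type arrays, against 0.892 to 0.899 between a null and a wild-type array. The median absolute difference between arrays of a group was 0.0837 for the null and 0.116 for the wild-type pair. The Foxl2 probe read -0.28 and -0.22 on the null arrays and -0.36 and -0.29 on the wild-type arrays, a log2 difference of 0.08 (SE 0.05, adjusted p = 0.559), and since its place within the deleted gene is not known here it gave no check of the genotypes. Markers of the tissue were present in every sample: Gdf9, the oocyte growth factor, read 5.67 and 5.84 on the null arrays and 6.10 and 6.24 on the wild-type arrays, and the zona pellucida gene Zp3 read 4.29 and 4.23 on the null arrays and 4.42 and 4.92 on the wild-type arrays. In whole ovaries, fewer cells of a type and less RNA per cell cannot be told apart.

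Of 12249 named genes, each taken by its brightest probe, 548 were higher (4.47%) and 506 lower (4.13%) in null ovaries at an adjusted p under 0.05, 8.6% in all. Over all 40995 probes tested, named or not, 1134 rose (2.77%) and 1133 fell (2.76%), 5.53% in all and in even number. With the authors' series values 2590 rose and 741 fell, 77.8% upward, on a scale whose median over all probes was 0.11 rather than 0.01. In a fit of the 4 compared arrays alone 172 rose and 287 fell, with 410 of the 2267 calls kept, and with the ovary channel alone 484 rose and 389 fell, with 645 kept. The called genes were nearly balanced in number, but large changes were more often falls: 152 genes fell and 91 rose by at least 1 on the log2 scale, 40 fell and 10 rose by at least 2, and 8 fell and none rose by at least 3. With the ovary channel alone (131 and 131) and with the series values (121 fell, 119 rose) the numbers at 1 or more were even or nearly so, while at 2 or more falls outnumbered rises under every alternative. The median difference over all named genes was 0.02, and 1% of them lay below -1.26 and 1% above 0.94. The 2 null and 2 wild-type arrays did not overlap for 52.8% of the genes, called or not, so a lack of overlap alone says little. Leaving out 1 array at a time left between 396 and 797 probes higher and between 365 and 841 lower, the fewest without null array 2 in both directions.

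**Figure D1:**
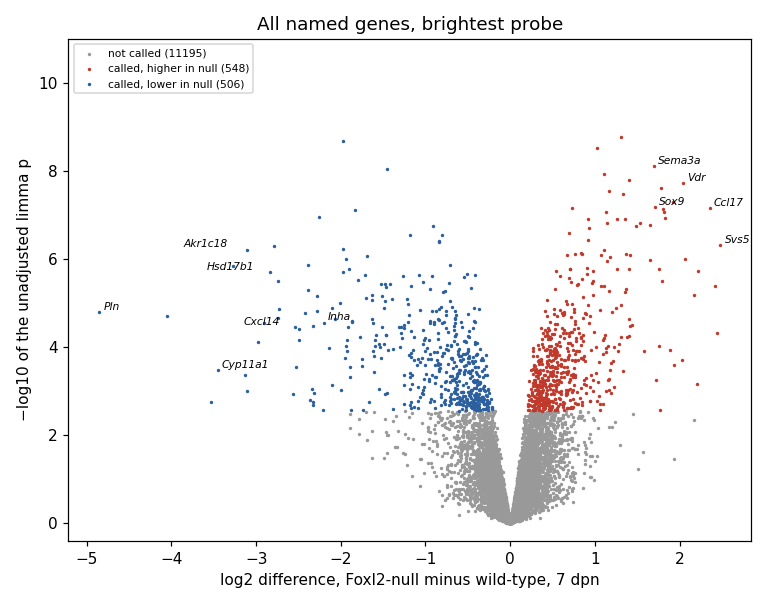
Log2 difference between Foxl2-null and wild-type ovaries at 7 dpn (x axis) and −log10 of the unadjusted limma p (y axis) for each named gene by its brightest probe. Red points are the 548 genes called higher, blue points the 506 called lower and grey points the rest, and the blue points reach farther from 0 than the red ones.

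The 15 largest falls included genes of granulosa cells, steroid synthesis and oocytes and several of other functions. Gja1 encodes connexin 43, the gap junction protein that couples granulosa cells, and read -1.38 and -1.59 on the null arrays and 1.48 and 1.36 on the wild-type arrays, a log2 difference of -2.90 (SE 0.42, adjusted p = 0.00275). Hsd17b1, which reduces oestrone to oestradiol, read 0.05 and 0.01 on the null arrays and 2.96 and 2.78 on the wild-type arrays, a log2 difference of -2.84 (SE 0.31, adjusted p = 0.000537). Nap1l5, an imprinted gene of the nucleosome assembly protein family, read 0.08 and 0.02 on the null arrays and 4.57 and 3.63 on the wild-type arrays, a log2 difference of -4.05 (SE 0.57, adjusted p = 0.00214). In these 3 genes the null arrays lay close together. The calcium pump inhibitor phospholamban, Pln, was not well above background on either null array and read 4.87 and 4.10 on the wild-type arrays, at least 9.05-fold higher in wild-type (adjusted p = 0.00195). Likewise the major urinary protein gene Mup4 was at least 4.30-fold higher in wild-type (adjusted p = 0.00508). Such bounds were taken against the lowest signal that is well above background, on the ovary channel. With normexp background correction the log2 differences were smaller, -1.44 for Pln and -0.72 for Mup4, and with the authors' series values -1.25 and -1.10, so the bounds hold for the processed signals only.

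Other genes among the 15 largest falls cover several functions. Chst8, a sulfotransferase that acts on the sugar chains of glycoprotein hormones, fell by 3.28 (null 0.60 and 0.33, wild-type 3.54 and 3.94). Ephx2, the soluble epoxide hydrolase, fell by 2.79 (null 0.93 and 1.01, wild-type 3.96 and 3.56), and Apoa1, the main apolipoprotein of high-density lipoprotein, by 2.74 (null 0.59 and 0.60, wild-type 3.17 and 3.51). The cell adhesion gene Pcdh8 fell by 2.74 and the granule protein gene Scg3 by 3.53. The genotypes did not overlap in any of these genes, as the choice of genes required. With normexp background correction the differences were -1.46 for Apoa1, -1.68 for Pcdh8, -1.39 for Scg3 and -3.15 for Nap1l5, and with the series values -1.52, -1.88, -1.30 and -2.94. The call for Pln was lost with the authors' series values, and that for Scg3 when any 1 of the 4 arrays was left out.

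Among the 15 largest rises were immune and epithelial genes, a nuclear receptor and secreted factors. Vdr, the vitamin D receptor, read -0.03 and 0.04 on the null arrays and -2.01 and -2.07 on the wild-type arrays, a log2 difference of 2.05 (SE 0.14, adjusted p = 3.58e-05), and its other probe gave 2.19. Ccl17, a chemokine of dendritic cells, read 1.91 and 1.87 on the null arrays and -0.37 and -0.57 on the wild-type arrays, a log2 difference of 2.36 (SE 0.19, adjusted p = 7.57e-05). Cd83, a surface protein of mature dendritic cells, read 3.72 and 3.90 on the null arrays and 1.21 and 1.56 on the wild-type arrays, a log2 difference of 2.42 (SE 0.29, adjusted p = 0.000829), with 2.38 at its other probe. Each of these 3 genes was tight within genotype. Il33, an interleukin held in the nuclei of epithelial and stromal cells, rose by 2.17 (null -0.61 and -0.45, wild-type -2.56 and -2.85) and Mt2, a metal-binding metallothionein, by 1.93 (null -0.29 and -0.17, wild-type -2.13 and -2.18). Pkp1, a desmosome protein, rose by 2.06 and the peptide hormone gene Cck by 1.83. Svs5, better known from the seminal vesicle, read 2.68 and 3.00 on the null and 0.45 and 0.26 on the wild-type arrays, a rise of 2.48.

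Several of the other large rises depended on single arrays, though not those of Cst9 and Schip1. The call for Cst9 was lost only in a fit of the 4 arrays alone. Trpm6, a magnesium channel, read 3.47 and 3.51 on the null arrays but 2.29 and 0.26 on the wild-type arrays, which lay far apart, and its call was lost without either null array. Cst9, a cystatin first described in fetal Sertoli cells, read 2.81 and 2.83 in null and 1.06 and 0.13 in wild-type. Schip1, a cytoskeletal adaptor, rose by 1.82, Wif1, a secreted inhibitor of Wnt ligands, by 2.03 and Nr0b1, the orphan receptor DAX1, by 1.89. Only 1 of the 2 wild-type arrays was well above background for Wif1, which rose by 1.07 with normexp background correction, and its call was lost without null array 2 or wild-type array 1. The call for Nr0b1 was lost without null array 2 or wild-type array 2. Cox7a1, a muscle form of a respiratory chain subunit, rose by 1.94, and its call was lost when any 1 of the 4 arrays was left out. The transporter gene Slc46a2 was not well above background on either wild-type array and was at least 4.50-fold higher in null ovaries (adjusted p = 0.00390), a call lost without null array 2 or in a fit of the 4 arrays alone, with log2 differences of 0.67 with normexp background correction and 0.95 with the series values. Normexp background correction made the fold over 1.5 times smaller for 9 of the 15 falls and 3 of the 15 rises, the latter Ccl17, Wif1 and Slc46a2. The series values did so for 9 falls and 2 rises. With the ovary channel alone the fold was over 1.5 times larger for Hsd17b1, Akr1c18, Nap1l5, Oog1, Cst9 and Wif1. Of these 30 genes, all kept their direction under every one of the 13 alternative settings and 17 were called under each.

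**Figure D2:**
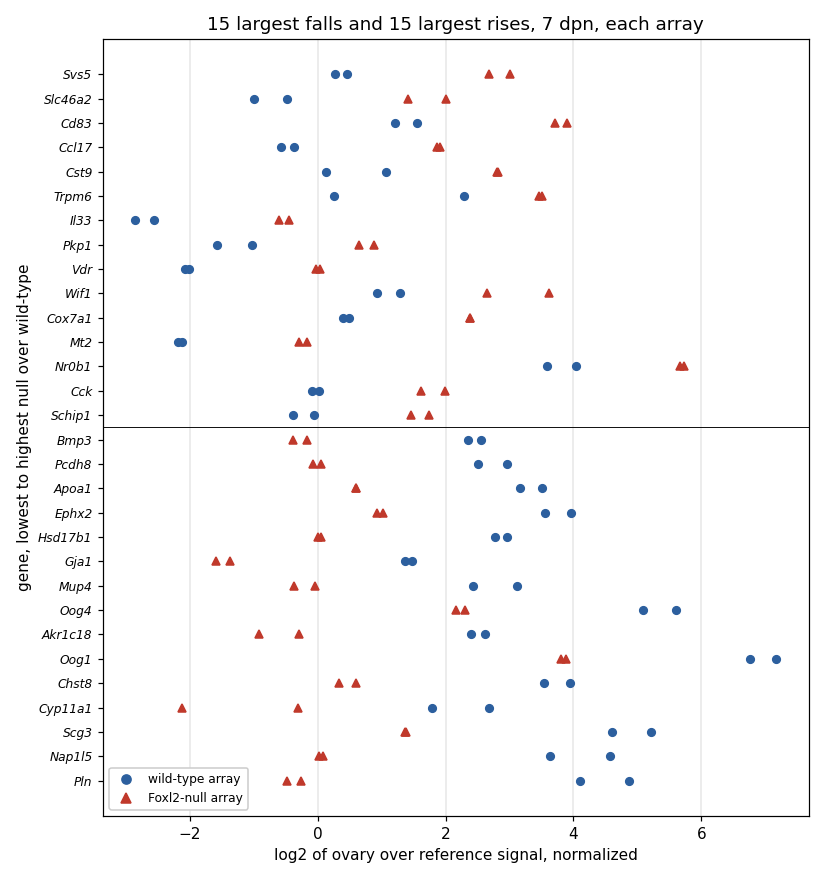
Normalized log2 ratio of ovary over reference (x axis) for the 15 genes with the largest rises (upper part) and the 15 with the largest falls (lower part), one row a gene. Triangles are the 2 Foxl2-null and circles the 2 wild-type arrays at 7 dpn. The wild-type circles of Trpm6 lie apart, whereas those of Vdr nearly coincide.

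Of 24 granulosa cell genes tested, 11 fell and 2 rose, 54.2% called against 8.6% of all genes, with a median difference of -0.59 against 0.02 over all named genes, and the median stayed below 0 under all alternatives, with 6 to 12 lower and 0 to 3 higher over the 13 alternatives, those without 1 array included. Inhba, the subunit shared by activin A and inhibin A, read -1.90 and -1.78 on the null arrays and 0.86 and 0.25 on the wild-type arrays, a log2 difference of -2.39 (SE 0.29, adjusted p = 0.000940). Inha, the subunit common to both inhibins, read 2.63 and 3.01 on the null arrays and 4.85 and 5.20 on the wild-type arrays, a log2 difference of -2.20 (SE 0.32, adjusted p = 0.00270), and -3.58 with the series values. Fst, whose product follistatin binds activin, read 0.15 and 0.04 on the null arrays and 1.89 and 1.56 on the wild-type arrays, a log2 difference of -1.63 (SE 0.21, adjusted p = 0.00126). In all 3 genes the arrays of the genotypes lay apart, as the choice of genes required. Amh, anti-Müllerian hormone, fell by 0.86 (null 0.14 and 0.13, wild-type 1.07 and 0.91), Igf1 by 1.17 and Esr2, the oestrogen receptor of granulosa cells, by 0.87. Sfrp4, a secreted Wnt binding protein, also fell, by 0.70. The 2 genes that rose were Nr0b1 and Runx1, a transcription factor of fetal granulosa cells, the latter by 0.78. Kitl, the ligand of the oocyte receptor KIT, read 0.50 and 0.48 on the null arrays and 1.19 and 0.75 on the wild-type arrays, and its difference of -0.48 did not pass the test (adjusted p = 0.0679). Nor did Fshr, the receptor for follicle stimulating hormone (-0.09, adjusted p = 0.685), or Amhr2 (0.09, adjusted p = 0.797). Igf1 lost its call without null array 2 or wild-type array 2. Esr2 lost its call with the ovary channel alone, with the series values and in a fit of the 4 arrays alone.

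Of 28 genes of steroid hormone synthesis, 8 fell and 2 rose, 35.7% called against 8.6% of all genes, with a median of -0.12 that turned to positive under 2 of the alternatives, and 3 to 10 lower and 0 to 3 higher over the 13 alternatives. Cyp11a1, which makes pregnenolone from cholesterol, read -2.13 and -0.30 on the null arrays and 2.68 and 1.79 on the wild-type arrays, a log2 difference of -3.45 (SE 0.67, adjusted p = 0.0131), with only 1 of the 2 null arrays well above background. Its difference was -1.17 with normexp background correction and -1.44 with the series values, both called. It was -2.58 without null array 1 and -4.42 without null array 2. Cyp19a1, the aromatase, read -0.08 and -0.14 on the null arrays and 2.60 and 2.03 on the wild-type arrays, a log2 difference of -2.42 (SE 0.33, adjusted p = 0.00195), and -3.82 at its other probe. Cyp17a1, which makes androgens, read 0.18 and 0.26 on the null arrays and 1.59 and 0.64 on the wild-type arrays, a log2 difference of -0.89 (SE 0.22, adjusted p = 0.0358), with -1.22 at its other probe. The 2 wild-type arrays of Cyp17a1 lay well apart. Nr5a2, the nuclear receptor LRH1, fell by 2.53 (null 0.09 and 0.65, wild-type 3.32 and 2.49), at -1.30 with normexp background correction and -1.40 with the series values. The calls for Cyp11a1 and Nr5a2 were lost without null array 1 or wild-type array 1, and that for Cyp17a1 without either null array. All 3 were also lost with the ovary channel alone and in a fit of the 4 arrays alone, and that for Cyp17a1 with median centring. Star, which carries cholesterol into mitochondria, read 0.59 and 0.72 on the null arrays and 1.30 and 0.63 on the wild-type arrays and did not pass the test (-0.32, adjusted p = 0.574). Lhcgr, the receptor for luteinizing hormone, and Nr5a1, the factor SF1, did not either, at -0.38 and -0.15. The 2 rises were Tspo, a mitochondrial outer membrane protein, by 0.74, and Hsd17b3, the testicular enzyme that makes testosterone, by 0.41, the latter lost without null array 2 or wild-type array 1. The other Hsd17b3 probe rose by 0.96.

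Hsd3b1, the enzyme that makes progesterone from pregnenolone, gave different answers by probe. The brightest probe read -0.15 and -0.05 on the null arrays and 0.42 and 0.08 on the wild-type arrays and missed the threshold (-0.35, adjusted p = 0.0598). Its other probes, named for the same gene, fell by 3.53 and 3.91, both called. The first read 0.44 and 0.03 on the null and 4.02 and 3.52 on the wild-type arrays, and the second 0.25 and -0.16 on the null and 3.80 and 4.11 on the wild-type arrays. Which probe follows the ovarian transcript was not tested. Cholesterol synthesis and uptake genes numbered 21, of which 1 rose and 2 fell (14.3% called, against 8.6% of all genes, and 0 to 3 lower and 1 higher over the 13 alternatives). The sterol exporter gene Abcg1 rose by 1.53 (null 1.18 and 1.30, wild-type -0.19 and -0.40), and Fdps and Hsd17b7 fell by 0.48 and 0.42, calls that were lost without null array 1, without null array 2 and without 1 wild-type array, array 2 for Fdps and array 1 for Hsd17b7. Other probes gave -0.12 and -0.21 for Fdps and -0.11 for Hsd17b7, none called.

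Aldo-keto reductases of the 1C group, which reduce progesterone and other ketosteroids, lie next to each other on mouse chromosome 13, and 4 of the 6 described here fell. In the wider family of aldo-keto reductases and aldehyde dehydrogenases 4 of 31 genes fell and 2 rose (19.4% called, against 8.6% of all genes), with a median of -0.01 that turned to positive under 5 of the alternatives, and 1 to 4 lower and 0 to 4 higher over the 13 alternatives. Akr1c18, which inactivates progesterone, read -0.29 and -0.92 on the null arrays and 2.40 and 2.61 on the wild-type arrays, a log2 difference of -3.11 (SE 0.30, adjusted p = 0.000251), with 1 of 2 null arrays well above background and -0.73 at its other probe. Its difference was -1.59 with normexp background correction and -1.47 with the series values. Akr1c13 read -1.27 and -1.34 on the null arrays and 1.77 and -0.16 on the wild-type arrays, a log2 difference of -2.11 (SE 0.46, adjusted p = 0.0214), and Akr1c12 read -1.68 and -1.59 on the null arrays and 1.29 and -0.56 on the wild-type arrays, a log2 difference of -2.00 (SE 0.45, adjusted p = 0.0250). The wild-type arrays of Akr1c12 and Akr1c13 lay nearly 2 log2 units apart, with array 1 the higher in both. Akr1c14 fell by 1.16, whereas Akr1c6 at -0.00 and Akr1c21 at -0.32 did not pass the test. Without null array 1 or null array 2 the calls for Akr1c12, Akr1c13 and Akr1c14 were lost, and without wild-type array 1 those for Akr1c12 and Akr1c14. Without wild-type array 1 the differences of Akr1c12 and Akr1c13 were -1.04 and -1.10, and without wild-type array 2 they were -2.92 and -3.08. The members are close in sequence, so that a probe may read more than 1 of them.

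The promoters of Akr1c12 and Akr1c13 are shown because these neighbours move together in level and hold the same forkhead letters at nearly the same place. The sequences are from RefSeq on build GRCm38.p6, from 250 bases before to 50 after the transcript start, 5′ to 3′ on the strand of the gene. Akr1c12 lies on the minus strand at chr13:4279350-4279649 and Akr1c13 on the plus strand at chr13:4190937-4191236. Capitals mark the reverse complement of GTAAACA, the forkhead letters searched, whose first base lies 25 bases before the start in Akr1c12 and 28 in Akr1c13.
Akr1c12: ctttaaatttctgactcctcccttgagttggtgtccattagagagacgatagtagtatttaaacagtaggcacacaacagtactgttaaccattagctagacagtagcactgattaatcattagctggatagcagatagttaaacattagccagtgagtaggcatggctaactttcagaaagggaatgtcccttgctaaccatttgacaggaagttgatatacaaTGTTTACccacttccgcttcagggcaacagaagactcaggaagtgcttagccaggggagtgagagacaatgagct
Akr1c13: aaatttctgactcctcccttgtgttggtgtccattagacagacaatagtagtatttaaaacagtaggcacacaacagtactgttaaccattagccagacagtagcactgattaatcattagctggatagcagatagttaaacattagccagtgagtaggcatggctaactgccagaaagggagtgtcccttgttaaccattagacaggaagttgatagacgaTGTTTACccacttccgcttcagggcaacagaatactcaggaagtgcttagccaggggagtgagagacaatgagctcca
Set on each other without gaps at the best shift, 245 of 297 bases were identical (82.5%), against 107 of 298 for Akr1c12 and Akr1c14. Neither Akr1c14 nor Akr1c18 held the letters in this window, and no promoter of Cyp11a1, Cyp19a1, Inha or Gja1 held them or AAGGTCA, the letters bound by SF1 and LRH1. Of 9745 tested genes with a promoter in the table, 3.56% held GTAAACA on either strand, against 3.26% of the 430 called higher and 3.02% of the 397 called lower. The shares for AAGGTCA were 4.23%, 2.79% and 4.53%. The motifs were counted apart, and a match is a description of letters only.

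**Figure D3:**
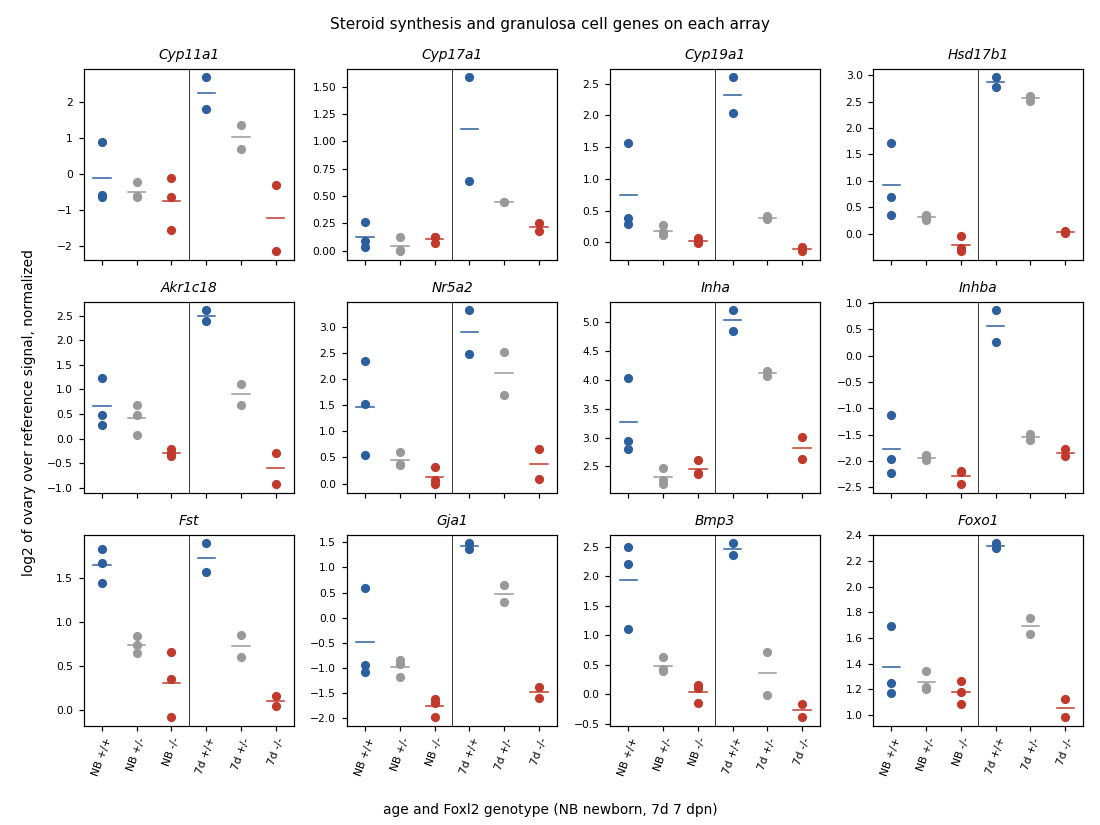
Normalized log2 ratio of ovary over reference (y axis) on each array for 12 genes of steroid synthesis and granulosa cells, by age and Foxl2 genotype (x axis). Points are arrays and bars group means, 3 arrays a genotype in newborns and 2 at 7 dpn. Blue is wild-type, grey heterozygous and red null, and for Cyp19a1 and Hsd17b1 the wild-type arrays at 7 dpn lie above all newborn arrays while the null arrays lie near those of newborn null ovaries.

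Of 60 genes of activin, inhibin, BMP and TGF-beta signalling, 11 fell and 1 rose (20% called, against 8.6% of all genes), with a median of 0.00 and 6 to 11 lower and 0 to 2 higher over the 13 alternatives. Those called were ligands, inhibin subunits, secreted binding proteins and no receptor or SMAD protein. Bmp3, a BMP ligand, read -0.38 and -0.16 on the null arrays and 2.35 and 2.56 on the wild-type arrays, a log2 difference of -2.73 (SE 0.37, adjusted p = 0.00175). Bmp15, the oocyte growth factor, read 0.50 and 0.32 on the null arrays and 2.15 and 1.91 on the wild-type arrays, a log2 difference of -1.62 (SE 0.28, adjusted p = 0.00673). Bmp3 differed by -1.51 with normexp background correction and by -1.55 with the series values. Gdf7, Gdf1, Ltbp4 and Tgfb2 fell by 0.57, 0.70, 0.55 and 0.41, and Fstl3, a relative of follistatin, rose by 0.53. The other Ltbp4 probe gave -0.03 and was not called. The receptor genes Acvr1b, Acvr2b and Bmpr1b, at 0.05, 0.24 and -0.33, and Smad1 to Smad5 in the list did not pass, with 1 wild-type array missing for Smad3. The calls for Bmp3, Inha, Inhba and Fst held under all 13 alternatives.

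In the Hedgehog, Wnt and Notch list, 8 of 70 genes fell and 6 rose (20% called, against 8.6% of all genes), with a median of 0.02 and 1 to 11 lower and 2 to 11 higher over the 13 alternatives. Falls outnumbered rises as reported, but rises outnumbered falls with the series values (11 against 5) and with the ovary channel alone (8 against 3). Gli1, a target and effector of Hedgehog signalling in theca cells, read 1.73 and 1.46 on the null arrays and 3.13 and 2.83 on the wild-type arrays, a log2 difference of -1.39 (SE 0.18, adjusted p = 0.00123), but its other probe gave 0.08. Wnt11, a Wnt ligand, read 3.13 and 2.93 on the null arrays and 1.31 and 1.16 on the wild-type arrays, a log2 difference of 1.79 (SE 0.21, adjusted p = 0.000700). The Wnt inhibitor gene Apcdd1 fell by 1.20 and Dkk3 by 1.15. Rspo1, a secreted enhancer of Wnt signalling in the fetal ovary, rose by 0.87, Lgr5, a receptor for it, by 1.19, Gas1, a Hedgehog co-receptor, by 0.89 and Wnt6 by 0.66. The Hedgehog ligands Dhh and Ihh, at 0.35 and -0.22, and the receptor Ptch1 at 0.03 did not pass the test. The Notch ligand Dll4, of endothelial tip cells, fell by 0.76. The call for Gli1 was lost with the ovary channel alone and in a fit of the 4 arrays alone. The call for Apcdd1 was lost without null array 2 or wild-type array 2, and that for Lgr5 without null array 1 or either wild-type array.

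Of 44 oocyte genes tested, 13 fell and 1 rose, 31.8% called against 8.6% of all genes, with a median of -0.31 that turned to positive under 1 alternative, and 5 to 14 lower and 0 to 4 higher over the 13 alternatives. Oog1, an oocyte leucine-rich repeat gene, read 3.88 and 3.81 on the null arrays and 7.17 and 6.77 on the wild-type arrays, a log2 difference of -3.13 (SE 0.63, adjusted p = 0.0151), and its relative Oog4 read 2.31 and 2.16 on the null arrays and 5.60 and 5.08 on the wild-type arrays, a log2 difference of -3.11 (SE 0.70, adjusted p = 0.0262). Nlrp2, of the maternal protein complex, read 0.24 and 0.72 on the null arrays and 2.81 and 2.80 on the wild-type arrays, a log2 difference of -2.33 (SE 0.58, adjusted p = 0.0415). The Nlrp2 difference was -1.69 with the series values and -3.12 with the ovary channel alone. All 3 genes lost their calls when any 1 of the 4 arrays was left out. Calls that held when each array in turn was left out included those for Oosp1, a secreted oocyte protein that fell by 2.01 (null 0.04 and 0.17, wild-type 2.40 and 1.83), the homeobox gene Obox1, by 1.91 (null -0.43 and -0.57, wild-type 1.74 and 1.09), and H1f8, the linker histone of oocytes, by 1.19 (null 1.87 and 1.56, wild-type 2.81 and 3.00), although the other Oosp1 probe gave -0.03. The calls for Oosp1, Obox1 and H1f8 were lost in a fit of the 4 arrays alone. With the ovary channel alone that for Oosp1 was lost as well. Rfpl4, a ubiquitin ligase partner in oocytes, fell by 1.75, lost without null array 1 or wild-type array 1, and the anti-apoptotic gene Bcl2l10 by 1.61. Genes called with smaller falls included Nlrp4f, Dppa5a and Padi6, at -0.81, -0.70 and -0.49, the first lost without null array 1 or either wild-type array. Other Dppa5a probes gave -0.36, -0.40 and -0.44, none called. Gdf9 and Zp3 did not pass (-0.41 and -0.41), nor did the germ cell genes Ddx4 and Dazl (-0.03 and -0.40) or the factor Nobox (-0.18). Sohlh2, a factor of primordial oocytes, rose by 0.37. Among 36 meiosis genes 2 rose and none fell (5.56% called, against 8.6% of all genes), but 9 rose with the series values and 7 with normexp background correction. Those called were the synaptonemal complex gene Tex12 by 0.98 and Tex11 by 0.68, both lost without null array 1, without null array 2 and without 1 wild-type array, array 2 for Tex12 and array 1 for Tex11.

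Of 54 histone genes tested, 11 fell and 1 rose (22.2% called, against 8.6% of all genes), with 1 to 12 lower and 0 to 5 higher over the 13 alternatives, the fewest falls in the fit of the 4 arrays alone. Of the 11 falls, 9 carry H2ac symbols, H2A genes of the histone clusters. H2ac22 read -0.14 and -0.07 on the null arrays and 0.48 and 0.62 on the wild-type arrays, a log2 difference of -0.66 (SE 0.09, adjusted p = 0.00235), H2ac20 -0.20 and -0.14 on the null arrays and 0.44 and 0.52 on the wild-type arrays, a log2 difference of -0.65 (SE 0.09, adjusted p = 0.00186), and H2ac21 fell by 0.64, a call lost without any 1 array. Neither H2ac20 nor H2ac22 was called with the ovary channel alone, with the 4 arrays alone or with loess on average intensity. The H2A values are alike from gene to gene, and these genes are near copies, so that the probes may share transcripts. None of the H2B, H3 or H4 genes tested passed. H2al2a, an H2A gene of the testis, fell by 1.84 (null 0.68 and 0.72, wild-type 2.55 and 2.52), with 0.02 at its other probe. H2ac18, another H2A gene, was the one that rose, by 0.43. The other probes of H2ac18 and H2ac20 gave 0.29 and -0.36 and were not called. In the list of cell cycle and mitosis, 4 of 56 genes fell and 2 rose, 10.7% called, near the 8.6% of all genes, with 0 to 9 lower and 0 to 4 higher over the 13 alternatives. Rrm2, a subunit of ribonucleotide reductase, fell by 0.67 and Cdc45, Bub1b and Tk1 by 0.44, 0.40 and 0.39. The cyclin D1 gene Ccnd1 rose by 0.98 and the cell cycle inhibitor gene Cdkn1a by 1.40, the latter with -0.77 at its other probe. The calls for Cdc45 and Bub1b needed all 4 arrays, and that for Rrm2 was lost without null array 2. The other probes of Ccnd1, Rrm2 and Cdc45, at 0.46, -0.45 and -0.35, were not called.

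Of 21 theca and interstitial cell genes tested, 7 fell and none rose, 33.3% called against 8.6% of all genes, with a median of -0.38 that stayed below 0 under all alternatives. With the ovary channel alone none of them was called lower and 1 higher, and in a fit of the 4 arrays alone 3 were lower. Pdgfra, a receptor of stromal progenitors, fell by 0.81 (null 0.00 and -0.15, wild-type 0.75 and 0.73), Ramp2, a receptor partner of adrenomedullin, by 0.92, Nr2f2, the factor COUP-TFII, by 0.69 and Tcf21 by 0.63. The matrix genes Dcn and Lum did not pass the test (-0.24 and -0.34). Both the Pdgfra and the Ramp2 calls were lost when any 1 of the 4 arrays was left out.

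Of 16 endothelial cell markers tested, 4 fell, 1 rose and 11 did not pass, 31.2% called against 8.6% of all genes, with a median of -0.43 and 1 to 6 lower and 0 to 2 higher over the 13 alternatives. Sox18, a factor of vessel growth, read 1.58 and 1.76 on the null arrays and 2.55 and 2.62 on the wild-type arrays, a log2 difference of -0.92 (SE 0.13, adjusted p = 0.00185). Flt1, a VEGF receptor, read -0.43 and -0.57 on the null arrays and 0.23 and 0.33 on the wild-type arrays, a log2 difference of -0.78 (SE 0.14, adjusted p = 0.00715). Emcn, an endothelial surface mucin, and Cldn5, a claudin, fell by 0.93 and 0.60, whereas Pecam1 and Cdh5, present in all endothelium, were at -0.21 and 0.03 and did not pass. Prox1, a factor of lymphatic vessels, rose by 0.62, with 0.15 at its other probe, which was not called. Mean levels over the 16 markers were 0.90 and 0.91 on the null and 1.20 and 1.27 on the wild-type arrays, without overlap. The call for Flt1 was lost without null array 2 or wild-type array 2, that for Cldn5 without null array 1 or either wild-type array, and those for Emcn and Prox1 without any 1 array. The part of the endothelial markers in the other results was not tested.

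Of 13 epithelial markers of the ovarian surface tested, 3 rose, 1 fell and 9 did not pass, 30.8% called against 8.6% of all genes, with a median of 0.45 and 0 to 1 lower and 1 to 4 higher over the 13 alternatives. Epcam, an epithelial adhesion protein, read -0.09 and -0.04 on the null arrays and -1.23 and -1.13 on the wild-type arrays, a log2 difference of 1.11 (SE 0.18, adjusted p = 0.00454), and 0.82 at its other probe. The keratin gene Krt18 read -1.73 and -1.65 on the null arrays and -2.77 and -2.48 on the wild-type arrays, a log2 difference of 0.94 (SE 0.13, adjusted p = 0.00218), and Aldh1a2, which makes retinoic acid, read 3.09 and 3.33 on the null arrays and 2.20 and 2.43 on the wild-type arrays, a log2 difference of 0.90 (SE 0.12, adjusted p = 0.00203). Aldh1a2 rose by 2.29 with the series values. The other Krt18 probe gave 0.92 and missed the threshold, and other Aldh1a2 probes gave 1.15 and 0.90, the second called. Upk1b and Msln, markers of mesothelium, were at 0.58 and 0.60 and did not pass. Krt7 did not pass at its brightest probe, whereas its other probe, at 0.78, was called. Cdh1, E-cadherin, fell by 0.70, a call lost without any 1 array. Mean levels over the 13 markers were 0.42 and 0.54 on the null and 0.06 and 0.12 on the wild-type arrays. The part of surface cells in the other rises was not tested.

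**Figure D4:**
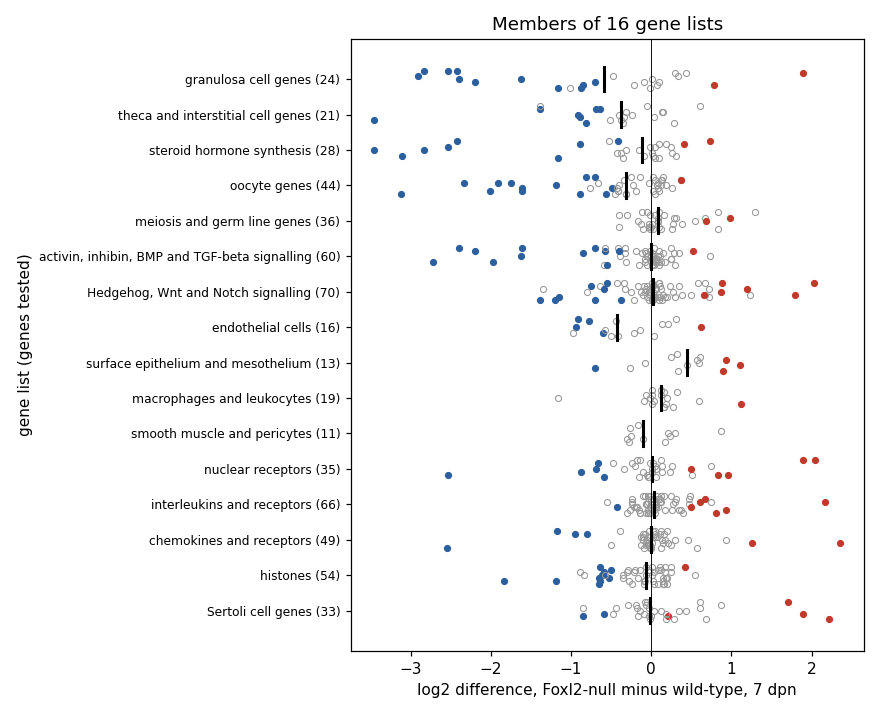
Log2 difference between Foxl2-null and wild-type ovaries at 7 dpn (x axis) for the members of 16 gene lists, with the number tested in brackets. Filled points are members called higher (red) or lower (blue), open points are members not called and black bars are list medians. The bar of the granulosa cell list lies lowest, at -0.59, and that of the surface epithelium list highest, at 0.45.

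Immune families held a few calls each. In the interleukin family 6 of 66 genes rose and 1 fell, 10.6% called, near the 8.6% of all genes, with 0 to 1 lower and 2 to 10 higher over the 13 alternatives. Il33 led the rises, with Il18, Il17re, Il17rc and Il25 rising by 0.94, 0.81, 0.67 and 0.61. Of 49 chemokine genes 2 rose and 4 fell (12.2% called, with 1 to 4 lower and 2 to 4 higher over the 13 alternatives). Cxcl14, a chemokine of epithelium and stroma, read 0.13 and 0.34 on the null arrays and 3.00 and 2.56 on the wild-type arrays, a log2 difference of -2.55 (SE 0.38, adjusted p = 0.00320). Cxcr4, the receptor for Cxcl12, read 0.28 and 0.51 on the null arrays and -0.88 and -0.86 on the wild-type arrays, a log2 difference of 1.26 (SE 0.11, adjusted p = 0.0001000), while Cxcl12 itself fell by 0.95 (null -2.26 and -2.02, wild-type -1.03 and -1.35). Ccl21b and Ccl21a, near copies that draw lymphocytes, fell by 1.17 and 0.80, with -0.41 at the other Ccl21a probe, which was not called. The interferon-response list held 5 rises and 2 falls among 43 (16.3% called, with 0 to 4 lower and 0 to 7 higher over the 13 alternatives). Gbp4, an interferon-induced guanosine triphosphatase, rose by 0.85 (null 0.33 and 0.19, wild-type -0.68 and -0.50). Cd74, the invariant chain of MHC class II, rose by 1.12 and was the only one of 19 macrophage and leukocyte markers called. Ptprc, the pan-leukocyte marker CD45, was well above background on 1 of 2 arrays of each genotype, read -5.27 and -4.21 on the null arrays and -4.62 and -2.54 on the wild-type arrays and did not pass (adjusted p = 0.381). H2-Eb1, a class II chain, rose by 0.21 at its brightest probe and by 1.69 at the other, with the first call lost without any 1 array. H2-DMb1, also of class II, was not called at its brightest probe but rose by 1.37 at its other probe, which was called. Mean levels over the 19 markers were -0.35 and -0.33 on the null and -0.50 and -0.40 on the wild-type arrays. The call for Cxcl12 was lost without any 1 of the 4 arrays, and that for Il18 without either null array or wild-type array 2.

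Nuclear receptors changed in both directions, 5 of 35 rising and 5 falling, 28.6% against 8.6% of all genes, with 1 to 5 lower and 2 to 6 higher over the 13 alternatives. Besides Vdr and Nr0b1, the photoreceptor factor Nr2e3 and the oestrogen-related receptor Esrra rose by 0.96 and 0.50. Besides Nr5a2, Esr2 and Nr2f2, the falls included Nr4a1, an immediate early receptor, by 0.66 (null -2.42 and -2.40, wild-type -1.58 and -1.92), a call lost without either null array or wild-type array 1. Esr1, the other oestrogen receptor, read 3.85 and 3.71 on the null arrays and 3.32 and 3.23 on the wild-type arrays and did not pass (adjusted p = 0.0595). In the Sox family 3 of 14 genes fell and 1 rose (28.6% called, with 1 to 3 lower and 1 to 2 higher over the 13 alternatives). Sox9, the factor that starts Sertoli cell differentiation, was negative on both wild-type and positive on both null arrays (0.48 and 0.70), a log2 difference of 1.71 (SE 0.13, adjusted p = 7.57e-05), but 0.08 at its other probe. Foxo1, a forkhead factor of granulosa cells, read 1.12 and 0.98 on the null arrays and 2.30 and 2.34 on the wild-type arrays, a log2 difference of -1.27 (SE 0.14, adjusted p = 0.000593), the only one of 34 forkhead genes called. In the Sertoli cell list as a whole, 4 of 33 genes rose and 2 fell (18.2% called, with 0 to 3 lower and 2 to 5 higher over the 13 alternatives), and Dmrt1 and Dhh, at -0.03 and 0.35, did not pass.

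Transport, matrix and channel families held scattered changes. Of 252 solute carriers, 16 rose and 7 fell, 9.13% called and near the 8.6% of all genes, with 1 to 13 lower and 2 to 19 higher over the 13 alternatives. Slc6a15, a neutral amino acid transporter, read -2.46 and -2.50 on the null arrays and -0.13 and 0.17 on the wild-type arrays, a log2 difference of -2.50 (SE 0.40, adjusted p = 0.00475), at -1.55 with normexp background correction, and Slc7a8, an exchanger of neutral amino acids, fell by 1.95, lost without null array 2 or wild-type array 2. Slc16a3, a lactate exporter, rose by 1.22, lost without null array 2, and Slc16a4, of the same family, by 1.29, with 1 of 2 wild-type arrays well above background for the latter, which rose by 0.53 with normexp background correction. Among 59 potassium channel genes 2 rose and 4 fell, 10.2% called and also near that share. Kcne1l rose by 1.72, lost without either null array or wild-type array 1, and Kcnip3, Kcnmb4 and Kcne3 fell by 1.60, 1.58 and 1.51, the second lost without null array 2. Among 29 collagens (10.3% called) Col8a1 fell by 1.80 and Col11a1 by 1.17, and Col17a1, of epithelial hemidesmosomes, rose by 1.35, or 0.65 with normexp background correction. Sema3a, a guidance cue, read -1.80 and -1.61 on the null arrays and -3.39 and -3.42 on the wild-type arrays, a log2 difference of 1.70 (SE 0.11, adjusted p = 2.36e-05), with 0.58 at its other probe and 1.10 with normexp background correction. Gsta3, a glutathione transferase, read 2.11 and 2.20 on the null arrays and 0.27 and 0.52 on the wild-type arrays, a log2 difference of 1.76 (SE 0.19, adjusted p = 0.000479), while Gsta2 gave opposite signs at its probes, 0.79 and -1.78, the first call lost without null array 2. Of 28 keratins 2 rose and 1 fell (10.7% called, near the 8.6% of all genes), Krt20 by 1.17, and of 4 GATA factors 1 rose, Gata3, by 1.15. Cyp4f14, a fatty acid hydroxylase, rose by 1.35 (null 2.02 and 1.94, wild-type 0.59 and 0.66). The neural markers S100b, Tubb3 and Elavl3 fell by 1.61, 1.29 and 1.55, 3 of 14 tested (21.4%), with S100b lost without either null array and Elavl3 without null array 1 or wild-type array 1, whereas the nerve genes Th, Dbh and Prph were at 0.02, 0.06 and 0.00 and did not pass.

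Several lists held few or no calls. None of 11 smooth muscle and pericyte markers, 10 adipocyte markers, 10 erythroid markers or 24 Hox genes passed the test. Of 68 cytosolic ribosomal protein genes 1 rose and 1 fell, yet 62 lay below 0, with a median of -0.23. Their mean levels were 0.24 and 0.18 on the null and 0.27 and 0.51 on the wild-type arrays, so in these means wild-type array 2 alone stood apart. The median was positive under 2 of the alternatives and -0.24 over all probes of these genes. Other probes of Rpl14, Rpl27, Rpl29 and Rps18 were called lower, at -0.46, -0.35, -0.34 and -0.31, with both wild-type arrays above both null arrays. Some other probes lay above 0, such as 0.38 for Rpl21 and 0.26 for Rpl29, none of them called. Of 72 respiratory chain subunits 5 rose and none fell (6.94% called, against 8.6% of all genes), Cox7a1 far more than the others, but 18 rose with the series values and none without null array 1, null array 2 or wild-type array 2. The adipocyte gene Fabp4 read 4.97 and 4.87 on the null arrays and 4.54 and 5.08 on the wild-type arrays. Adipoq, which encodes adiponectin, read 3.54 and 3.71 on the null arrays and 3.28 and 3.76 on the wild-type arrays. Both were positive on all 4 arrays, and their genotypes overlapped.

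The heterozygous arrays of the same age share the wild-type arrays with this comparison, so their values are given side by side only. Against wild-type, 7 genes were called in heterozygotes (0.0572%). Cyp19a1 read 0.36 and 0.41 on the heterozygous arrays against 2.60 and 2.03 in wild-type and -0.08 and -0.14 in null ovaries. Inhba read -1.49 and -1.59 in heterozygotes, near the null arrays at -1.90 and -1.78 rather than the wild-type arrays at 0.86 and 0.25. Hsd17b1 read 2.52 and 2.61, near wild-type at 2.96 and 2.78, and Fst read 0.85 and 0.60, between the other genotypes. Oog1 read 6.43 and 6.78 in heterozygotes, near wild-type.

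Newborn ovaries share no array with the 7 dpn comparison, but both ages share the normalization, the fit and the spread estimated for each probe. In newborns 207 named genes rose in null ovaries (1.69%) and 103 fell (0.841%). Of 1054 genes called at 7 dpn, 201 were also called in newborns, and 198 of the 201 had the same sign. The 201 are 64.8% of the 310 newborn calls, whereas 8.6% of all named genes were called at 7 dpn. A probe with a small shared spread is more readily called at both ages, so this overlap is not an independent check. Vdr rose by 1.78 in newborns and 2.05 at 7 dpn, and Slc46a2, Wnt11 and Fst were called at both ages. The steroid genes Cyp11a1, Cyp19a1 and Hsd17b1 differed by -0.65, -0.72 and -1.14 in newborns, none called there. In wild-type ovaries Hsd17b1 averaged 0.92 ± 0.70 at birth and 2.87 ± 0.13 at 7 dpn, and in null ovaries -0.21 ± 0.15 and 0.03 ± 0.03. The file headers give separate days for the image processing of the newborn and the 7 dpn arrays, so age and that day cannot be told apart, whereas null and wild-type arrays of an age share a day. The test of the difference between the ages called 34 genes (0.278%), 33 of them called at 7 dpn, a count that over all probes moved from 77 to between 10 and 167 when 1 array was left out, the fewest without null array 2 and the most without wild-type array 1. It called neither Cyp11a1 (adjusted p = 0.246) nor Hsd17b1 (adjusted p = 0.156).

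**Figure D5:**
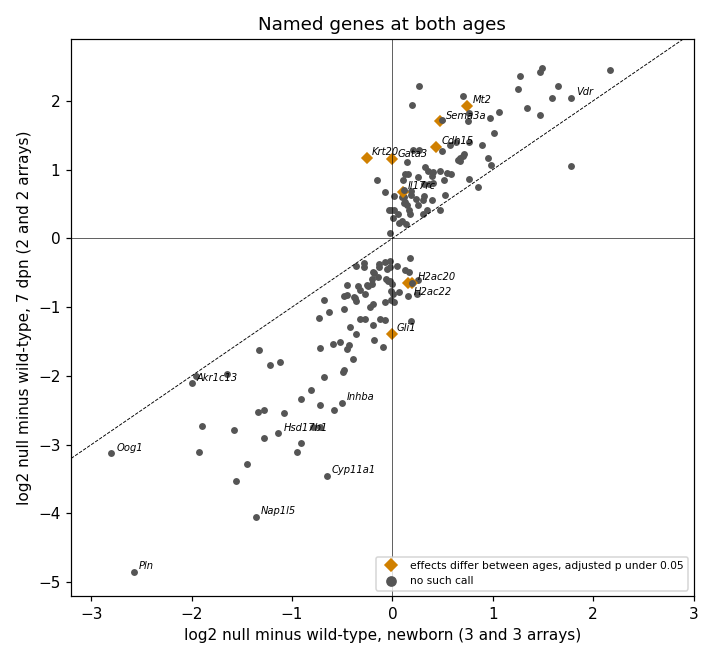
Log2 difference between Foxl2-null and wild-type ovaries in newborns (x axis, 3 arrays a side) and at 7 dpn (y axis, 2 arrays a side) for the named genes. Orange diamonds are genes whose effect differed between the ages, grey circles the rest, and the dashed line marks equal effects. The genes were chosen by their size at 7 dpn, which places most of them farther from 0 on that axis, and Gata3, Gli1 and Krt20 lie near or past 0 in newborns.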

How the data were processed

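Ovary RNA in Cy3 and reference RNA in Cy5 were hybridised to Agilent mouse developmental arrays, and the deposited scanner files give a processed intensity per spot and channel, background-subtracted and dye-normalized by the authors with Agilent Feature Extraction 7.5.1. The labels name a linear amplification kit, while the methods state no amplification at 7 dpn. The methods name 4 samples at that age and the labels 6, and no dyes were swapped. The authors' series values, deposited as linear intensities with centring not stated, were converted to log2 and served as an alternative.

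The log2 ratio of the processed signals was taken per non-control probe and normalized by a loess fit of span 0.01 against the mean of all arrays, and all 15 arrays were fitted with limma 3.58.1 in R 4.3.3, with 1 mean per age and genotype. P-values were adjusted by Benjamini-Hochberg over all probes, and a call is an adjusted p under 0.05. Replicates at 7 dpn are pools, while the methods state no pooling for newborns, and the spread is estimated over both; p-values measure the spread between these samples alone. Of 41006 probes, 20657 carried a RefSeq accession and 15294 were named through the RefSeq table, giving 12254 genes. A gene is represented by its brightest probe, and for the called genes named, other probes are given where the call or sign differs or the values lie far apart. Genes named were the 15 largest called changes in each direction, and up to 5 called members of each list by size, where both arrays of the higher group were well above background and the groups did not overlap; other members were named after their values were seen. Members and lists were chosen with earlier results of these data known. A few genes counted among list members are not reported here by name.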

Additional observations from a re-analysis of the deposited data

Results flagged for a closer look

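The difference between the 7 dpn and the newborn effect of the null genotype passed the test at 77 probes, and 12 genes among them are given here by the 7 dpn effect minus the newborn effect on the log2 scale. The difference was -1.38 for Gli1, -0.849 for H2ac20, -0.815 for H2ac22, 0.566 for Il17rc, 0.701 for Ezr, 0.89 for Cdh15, 1.15 for Gata3, 1.18 for Mt2, 1.22 for Sema3a, 1.40 for Atp6v1c2, 1.43 for Krt20 and 1.59 for Chrnb1. Ezr, Atp6v1c2 and Chrnb1 were called at both ages with opposite signs, 0.32 and -0.38 for Ezr, 0.84 and -0.57 for Atp6v1c2, and 0.90 and -0.68 for Chrnb1, at 7 dpn and in newborns. They were chosen after their values were seen. The other Gli1 probe did not show the fall at 7 dpn (0.08). The arrays of each age had their images processed on a day of their own, and age and day cannot be told apart. The part of probe choice and day was not tested.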

How the results depend on the processing

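Over 13 alternatives the probes higher and lower in null ovaries numbered 484 and 389 with the ovary channel alone, 2590 and 741 with the authors' series values, and 172 and 287 in a fit of the 4 arrays alone, and between 396 and 797 and between 365 and 841 without 1 array. The other counts lay within 1.5 times of those reported. Probes whose effect differed between ages numbered 231 with normexp background correction, 1 with the ovary channel alone, and between 10 and 167 without 1 array. Serpina3c turned to 0.0908 and Foxl2 to -0.20 with the ovary channel alone, and Rpl26 to 0.0091 with the series values. With all probes of a gene, the medians of 3 of 66 lists turned sign (Sertoli cell, activin and BMP, and immediate early genes). Of 188 called genes taken by the naming rule, 118 lost their calls in a fit of the 4 arrays alone and 93 with the ovary channel alone. Such losses are not given for every gene above. The causes were not tested. A loess fit on average intensity, added after the data were seen, gave 1387 and 1007.

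With the replicate number as a block, 1027 probes were higher, 1007 lower and 13 differed between ages. Deviations of null and wild-type arrays of the same number correlated at r = -0.0201. With 2 arrays a group this value is the same for both numbers, and it cannot show whether such samples share more than a number. A scan date block was not run, since the headers used here give only the day of image processing, and each such day holds 1 age. The number of arrays, 2 a group, limits the precision.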
